A study of Mus musculus with 8 samples.

Results

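The genes described here are those of the ubiquitin-conjugating enzymes and of the ubiquitin-specific proteases, taken as the protein-coding mouse genes whose symbols begin with Ube2, or with Usp and a digit. There were 93 of them among 21887 protein-coding genes, 37 named Ube2 and 56 named Usp. A further 8 symbols fitted the name and were not protein-coding. Peaks of Runx1, of Ezh2 and of the histone mark H3K27me3 were mapped by chromatin immunoprecipitation and sequencing in EML_C1, a blood progenitor line with its strain given as C57BL/6, kept in stem cell factor. EML lines were immortalised with a dominant-negative retinoic acid receptor. Each antibody was used in 2 replicates, and all libraries came from this single line, with no mutant or treated group. RNA was not among the measurements used here, so the cell type could not be checked against its markers. Chromatin for Runx1 and Ezh2 was fixed with DSG and formaldehyde and shared an input library, while chromatin for H3K27me3 was fixed with formaldehyde alone and had another input. The labels do not say whether replicates were separate cultures, so the spread between them may be technical.

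Ubiquitin is a small protein that is attached to other proteins through a relay. An activating enzyme (E1) loads ubiquitin onto a conjugating enzyme (E2, mostly named Ube2), and a ligase (E3) directs the transfer to a substrate, which may then go to the proteasome, change partners or move within the cell. Deubiquitinating enzymes, of which the ubiquitin-specific proteases (Usp) are the largest family, remove it again. Runx1 is a transcription factor needed to form blood stem cells. Ezh2 is the catalytic subunit of Polycomb repressive complex 2, which sets H3K27me3, a mark found at silent genes, and "Polycomb" is used below for a call of Ezh2 or of H3K27me3.

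The sequences that carried the strongest Runx1 signals, and those in which a RUNX motif lay near the summit, are shown next. Each is a stretch of 120 bases from RefSeq promoters on the build GRCm38.p6, placed around the mean Runx1 summit of both replicates and written 5′ to 3′ on the strand of the gene. Capitals mark the RUNX core, searched as TGTGGT or TGCGGT on both strands. Usp28, Usp12 and Usp32 had some of the highest Runx1 folds, Ube2d3 had the highest of the Ube2 genes, Ube2m and Ube2f carry a core near the summit, and Usp6nl is the gene with the strongest Ezh2 signal.
Usp28, chr9:48985239-48985358, + strand: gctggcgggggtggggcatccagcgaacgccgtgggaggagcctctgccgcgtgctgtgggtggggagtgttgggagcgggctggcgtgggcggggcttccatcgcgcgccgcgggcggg
Usp12, chr5:146794994-146795113, - strand: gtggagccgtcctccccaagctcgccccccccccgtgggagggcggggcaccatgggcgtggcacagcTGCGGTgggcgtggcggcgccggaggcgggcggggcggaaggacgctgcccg
Usp32, chr11:85139987-85140106, - strand: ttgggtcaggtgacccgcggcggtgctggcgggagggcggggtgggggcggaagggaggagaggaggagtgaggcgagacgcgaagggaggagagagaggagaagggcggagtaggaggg
Ube2d3, chr3:135438081-135438200, + strand: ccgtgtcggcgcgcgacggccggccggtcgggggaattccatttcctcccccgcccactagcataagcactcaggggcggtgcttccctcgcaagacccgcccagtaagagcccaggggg
Ube2m, chr7:13038075-13038194, - strand: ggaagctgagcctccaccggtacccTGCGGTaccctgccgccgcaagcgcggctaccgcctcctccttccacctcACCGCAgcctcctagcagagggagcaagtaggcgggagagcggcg
Ube2f, chr1:91250234-91250353, + strand: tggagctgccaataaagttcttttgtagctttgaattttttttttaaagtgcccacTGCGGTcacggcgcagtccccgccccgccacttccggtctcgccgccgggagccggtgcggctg
Usp6nl, chr2:6322687-6322806, + strand: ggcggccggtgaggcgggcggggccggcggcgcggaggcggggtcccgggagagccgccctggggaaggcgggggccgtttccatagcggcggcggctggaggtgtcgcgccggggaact
The summit lay at base 61 of the first 5 stretches, at base 69 of that of Ube2f and at base 71 of that of Usp6nl. The core in the Usp12 stretch was centred 10.5 bp from the summit. The nearest core was 18 bp away in Ube2m, at a start lying further into that gene, and 9.5 bp away in Ube2f. No core is in the stretches of Usp28, Usp32, Ube2d3 or Usp6nl.

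A gene was called for an antibody when a window of 1 kb either side of a gene end held a peak of both replicates. On this rule Runx1 was found at 63 of the 93 genes, or 67.7%, beside a background of 45.3% of all protein-coding genes. Ezh2 was called at 7 genes, or 7.53%, where 18.4% of all genes were called. H3K27me3 was called at 8, or 8.60%, with 30.6% of all genes called. Ubiquitin enzyme genes thus held Runx1 more often and Polycomb less often than the genome at large in these lists, as a description without a test, since genes are not replicates. Either Polycomb signal was present at 10 of the 93 genes (10.8%) and at 32.7% of all genes. Both families were alike in this: Runx1 was called at 37 of 56 Usp genes (66.1%) and at 26 of 37 Ube2 genes (70.3%), and Polycomb at 6 Usp genes and 4 Ube2 genes. None of the 3 antibodies was called at 25 of the 93 genes, or 26.9%, beside 26.4% of all genes other than olfactory receptors. With the lists of replicate 1 alone, Ezh2 was at 13 of the 93 genes (14.0%), against 27.3% of all genes, and H3K27me3 at 20 (21.5%), against 38.6%.

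The counts depend on the peak threshold in different ways for the antibodies. With only peaks of q at most 0.01 in each list, 61 of the 93 genes kept Runx1 and 4 kept Ezh2, and none kept H3K27me3, where the background was 42.3%, 8.08% and 3.02% of all genes. With q at most 1e-05, 60 genes held Runx1, 1 gene held Ezh2 and none held H3K27me3, beside 39.0%, 4.58% and 0.425% of all genes. The Runx1 calls were therefore mostly strong, and the Polycomb calls of these genes mostly weak, as in the lists as a whole. Peaks of q at most 0.01 made up 60.0% and 69.3% of the Runx1 lists of replicates 1 and 2. They made up 20.2% and 14.1% of the Ezh2 lists, and 6.13% and 1.34% of the H3K27me3 lists.

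**Figure D1:**
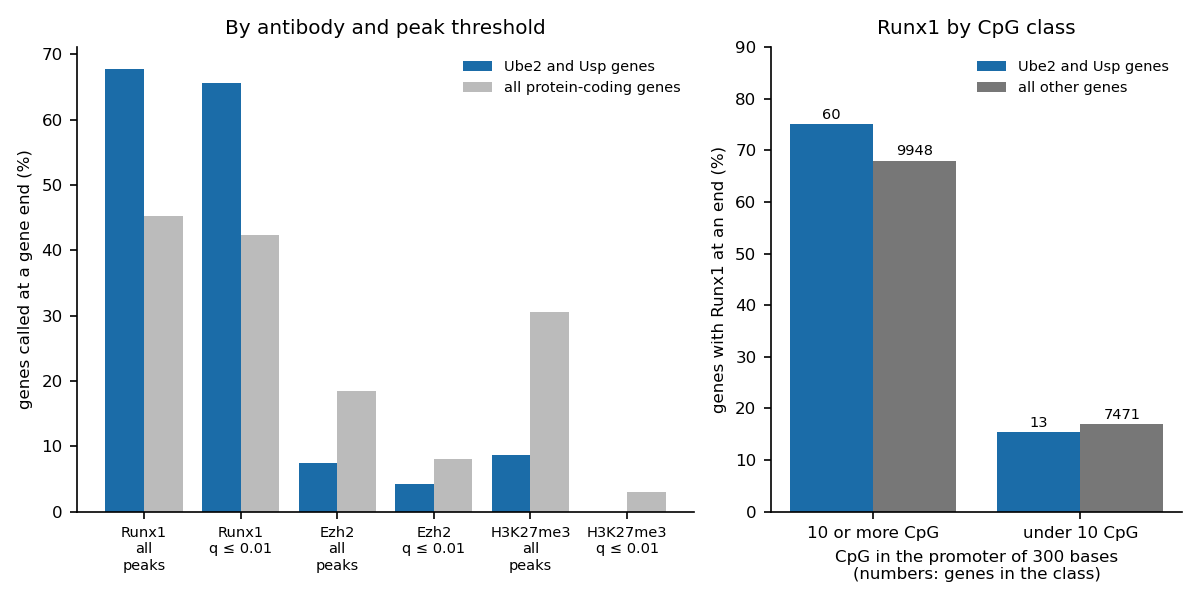
Share of genes called at a gene end, in percent. Left, Ube2 and Usp genes (blue, n = 93) and all protein-coding genes (grey, n = 21887) for each antibody, with all deposited peaks and with peaks of q at most 0.01; the blue Runx1 bars stand above the grey ones and the blue Ezh2 and H3K27me3 bars below. Right, share with Runx1 by the number of CpG in the promoter, with the number of genes above each bar; the bars of each class lie closer together than the bars for Runx1 on the left.

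Promoters of these genes were rich in CpG, the dinucleotide that marks CpG islands. RefSeq promoters of 300 bases were at hand for 73 of the 93 genes. They held a median of 25 CpG, against 13 in all promoters of the table, and 82.2% of them held 10 or more CpG, against 57.2% of all. Within the class of 10 or more CpG, Runx1 was called at 45 of 60 ubiquitin enzyme genes (75.0%) and at 68.0% of other genes. In the class below it was called at 2 of 13 (15.4%) and at 16.9% of others. Inside each class the shares with Runx1 at a gene end therefore lay closer together than over all genes. The CpG were counted at the RefSeq start, which at 9 genes lay over 1 kb inside the gene. Usp34, Usp37, Usp4 and Usp7, in the class of 10 or more CpG, had Runx1 at that start and at neither end. Shares at RefSeq starts were not counted by class. The lower Polycomb share was still seen among CpG-rich promoters, where Ezh2 was called at 6 of 60 genes (10.0%) and at 17.8% of others, and H3K27me3 at 7 of 60 (11.7%) and at 24.9% of others. This split was added after the data were examined.

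Fold enrichment over input, as the authors' peak caller wrote it, is given below for the highest peak in the called window of each replicate. Over the 63 genes with Runx1 the mean of both replicates ranged from 1.82 to 126, with a median of 8.94, against a median of 7.50 over all genes called. The strong end was well filled: 13 of the 63 genes (20.6%) had a fold of 30 or more, against 10.9% of all genes called. Usp genes had a median of 11.3 and Ube2 genes one of 7.69. Replicate 1 gave the higher fold at 44 of the 63 genes, among them 24 of the 28 with a fold of 10 or more, and the median ratio of replicate 2 to replicate 1 was 0.899. Replicate summits lay within 50 bp of each other at 56 of the 63 genes (88.9%), against 83.6% of all genes called.

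**Figure D2:**
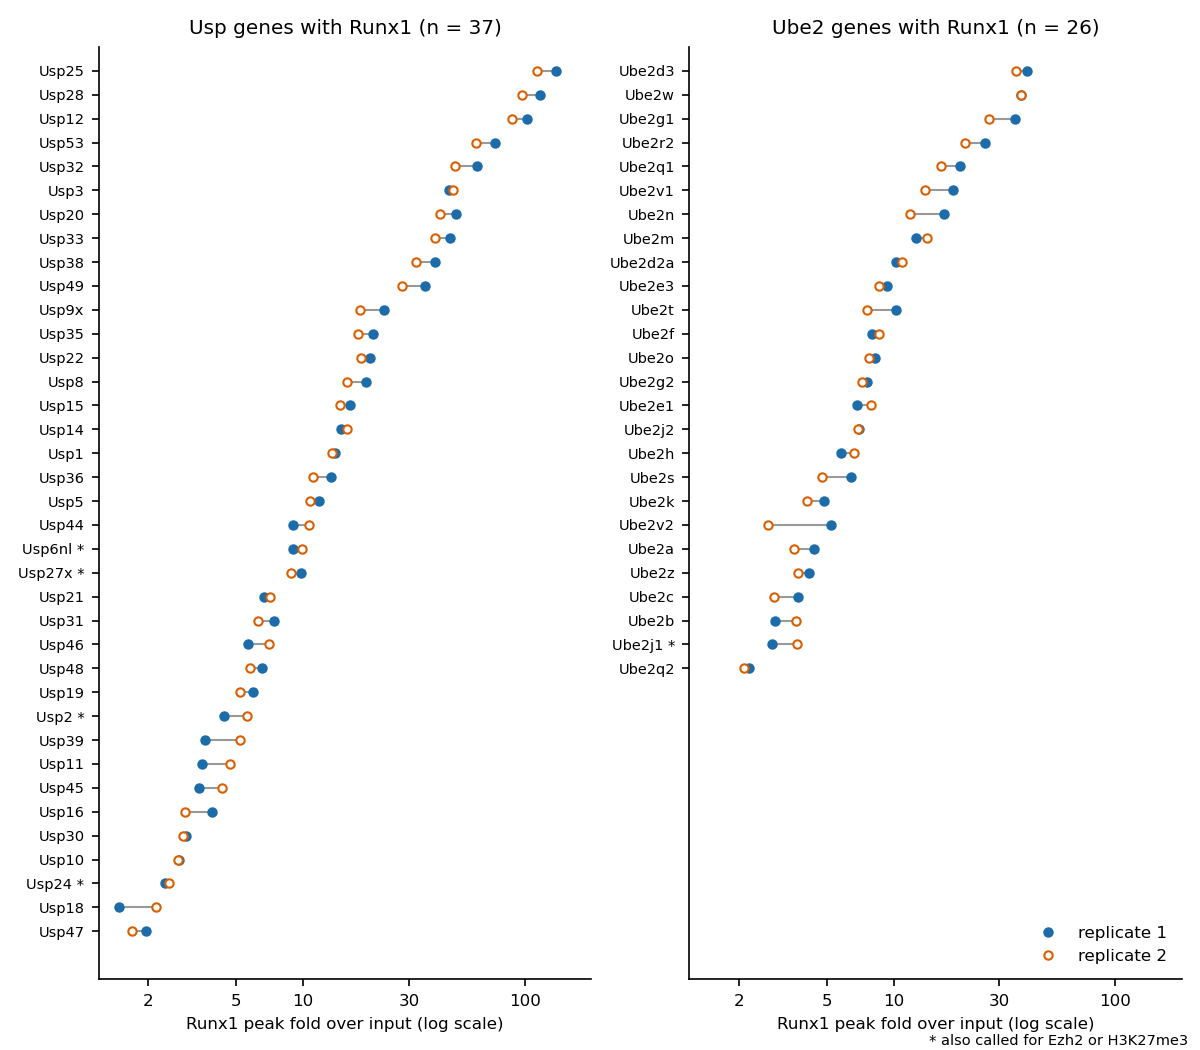
Runx1 peak fold over input (log scale) at each Usp gene (left, n = 37) and Ube2 gene (right, n = 26) called for Runx1, with replicate 1 as filled and replicate 2 as open points, ordered by the mean. Usp25, Usp28 and Usp12 stand at the top with folds near 100, no Ube2 gene exceeds 40.0, and genes also called for Polycomb (asterisk) all lie below 10.

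The highest Runx1 signal was at Usp25 (chr16:77013684-77116783 on GRCm38.p6), a protease that trims ubiquitin chains and is a close relative of Usp28. Its fold was 139 in replicate 1 and 114 in replicate 2 (126 ± 17.6, SD, n = 2), with summits at −425 and −413 bp from the start, where negative means upstream. Usp28 (chr9:48985319-49042517), known in human cells to stabilise Myc, followed with 118 and 96.9 (107 ± 14.7) and summits at −91 and −82 bp. Both replicates placed these paralogues first and second, although the sites differ in their distance from the start. Usp12 (chr5:146734809-146794956), which is active when bound to the WD40 protein Wdr48, had 102 and 87.6 (95 ± 10.4). The other genes known to need Wdr48 had lower values: Usp1, which removes ubiquitin from Fancd2 and Pcna, had 14.0 and 13.5, and Usp46 had 5.66 and 7.01.

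Usp53, associated with tight junctions, came next with 73.7 and 60.5 (67.1 ± 9.34). Usp32, a membrane-anchored protease, had 60.7 and 48.7 (54.7 ± 8.49), in a window that also holds the end of another gene. The 4 highest genes were in the same order in both replicates, and their values did not overlap between neighbours except for Usp28 with its neighbours on either side. Usp20 and Usp33 are a pair of related proteases that act on an adrenergic receptor in human cells, and they had similar folds. That of Usp20 was 48.7 and 41.5 (45.1 ± 5.12), again in a window shared with another gene, and that of Usp33 was 45.9 and 39.2 (42.6 ± 4.68). Usp38 had 39.5 and 32.5 (36.0 ± 4.99).

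Among proteases that act on histones H2A and H2B, Runx1 was called at 7 of 8 genes. Usp3, an H2A protease, had the highest fold of the group with 45.5 and 47.6 (46.6 ± 1.51). Usp49, described for H2B in human cells, had 35.6 and 28.0 (31.8 ± 5.37). Its summit lay over 1 kb upstream of the start, and the call was lost with windows of 500 bp. Usp22, the H2B protease of the SAGA complex, had 20.0 and 18.3, and Usp44 had 9.04 and 10.7. Usp16 and Usp21, both H2A proteases, had 3.87 and 2.94, and 6.64 and 7.11, with the window of Usp21 shared with another gene. The signals of this group thus spanned more than a factor of 10 while nearly all its genes were called. Usp51 had no Runx1 peak in either replicate, and Usp27x, a relative of Usp22, is described with the Polycomb genes.

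The share of genes with Runx1 at a gene end differed between the other groups of proteases, to be read beside the 45.3% of all genes. These shares depend on the window, which misses RefSeq starts inside a gene. In the group acting on p53, Mdm2 and Myc, 4 of 7 genes were called (57.1%). Usp7 and Usp37 of this group, and Usp34 and Usp4 of the signalling group below, had Runx1 at such an inner start and at neither end. Usp36, a nucleolar protease, had 13.4 and 11.1, and Usp10 had 2.76 and 2.72, near the lower limit. All 5 genes of the DNA damage group were called, Usp1 highest, and Usp47 only with 1.96 and 1.69, a call lost at q 0.01. Among genes of TGF-beta, Wnt and NF-kB signalling, 5 of 8 were called (62.5%): besides Usp20 and Usp33 these were Usp9x with 23.1 and 18.1, Usp15 with 16.3 and 14.8, and Usp31 with 7.37 and 6.23. Of 6 genes acting at endosomes, in autophagy and at mitochondria 5 were called. Usp35, a mitochondrial protease, was highest there with 20.7 and 17.7, in a window shared with another gene. Usp8, which sorts receptors at endosomes, had 19.3 and 15.8. The proteasome-bound Usp14 had 14.9 and 15.7. Usp5, which takes apart free ubiquitin chains, had 11.8 and 10.7, in a window shared with another gene. Usp39, a splicing factor without protease activity, had 3.61 and 5.22.

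The conjugating enzymes were led by 3 genes with folds above 30. Ube2d3, an E2 that serves a wide range of ligases, had 40.0 and 35.6 (37.8 ± 3.11). Ube2w, which attaches ubiquitin to the amino terminus of proteins, had 37.5 in each replicate. Ube2g1, an E2 for K48-linked chains with cullin ligases, had 35.2 and 26.9 (31.1 ± 5.87). The chain-starting group, of the D and E classes, was called at 5 of 8 genes. Its other members were lower: Ube2d2a had 10.3 and 10.9, Ube2e3 had 9.30 and 8.58, and Ube2e1 had 6.80 and 7.90. Ube2d1, Ube2d2b and Ube2e2 were not called.

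All 6 genes of K48-linked chains and degradation at the endoplasmic reticulum held Runx1, with Ube2r2 at 25.8 and 21.0 behind Ube2g1. The lower ones were Ube2g2 with 7.62 and 7.20, Ube2j2 with 6.96 and 6.93, Ube2k with 4.85 and 4.07, and Ube2j1 with 2.83 and 3.66. The window of Ube2k also holds the end of another gene. The 3 genes of K63-linked chains were called as well. Ube2n is the catalytic subunit and had 16.9 and 11.9, and its partner subunits Ube2v1 and Ube2v2, which lack the active cysteine, had 18.6 and 13.9, and 5.21 and 2.72. Ube2v2 is the gene with the widest gap of replicates, its fold in replicate 2 being 0.522 of that in replicate 1.

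E2 genes of the cell cycle and of DNA damage were called throughout, at modest folds. Ube2s, which extends chains for the anaphase-promoting complex, had 6.45 and 4.76, and Ube2c, which starts them, had 3.72 and 2.88. Ube2t, the E2 of the Fanconi anaemia pathway, had 10.3 and 7.57, just under the median of 8.94 that Ube2e3 sets, with Usp27x just above it. Ube2a and Ube2b, the Rad6 pair, had 4.37 and 3.54, and 2.91 and 3.63. Of the E2 genes for ubiquitin-like proteins, Ube2m and Ube2f, both for Nedd8, had 12.7 and 14.1, and 7.98 and 8.57. Ube2z had 4.13 and 3.69. Among the remaining E2 genes Ube2q1 was highest with 19.8 and 16.3.

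The weakest Runx1 calls were at Usp47 and at Usp18, and both were lost at q 0.01. Usp18 is the protease that removes the interferon-induced modifier Isg15, and it had 1.48 and 2.16 (1.82 ± 0.481). The E1 for Isg15, Uba7, is not a Ube2 or Usp gene and had 17.8 and 19.8. The E2 for Isg15, Ube2l6, had no Runx1 call. Its only Runx1 peak at an end was in replicate 2, with a fold of 2.07. The enzymes of this single pathway thus ran from a clear Runx1 peak to none.

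At the gene ends, Runx1 sat on the start side of these genes. The strand was known for 47 of the 63 called genes. In all 47 the end window with the highest Runx1 peak was that on the start side, against 89.6% of such genes overall. Runx1 was at that end alone in 41, at both ends in 6 and at the far end alone in none. At Usp45, Usp2 and Ube2b the RefSeq start lies further inside the gene, and the mean fold there was higher still (79.2, 50.9 and 8.86). Positions were taken from the RefSeq start nearest the summit, which favours short distances in genes with several starts. The mean summit was at a median of −20.5 bp, against −45 bp over all genes, and within 150 bp of the start in 33 of 47 genes (70.2%), against 65.6% of all genes. Strong peaks lay upstream: with a fold of 10 or more and a summit within 1000 bp, 17 of 18 summits (94.4%) were upstream, at a median of −91.8 bp, against 79.8% of all such genes. Below a fold of 10 only 12 of 25 (48%) were upstream, at a median of 13 bp, against 57.1% of all. Usp28, Usp12, Usp32, Usp20, Ube2d3 and Ube2g1 had their summits between −103 and −74 bp in both replicates. Ube2m was the strong gene with a downstream summit, measured from the start at its gene end, the one nearest the summit. The Ube2m stretch printed above belongs to a start inside the gene. This split by strength was added after the data were examined.

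**Figure D3:**
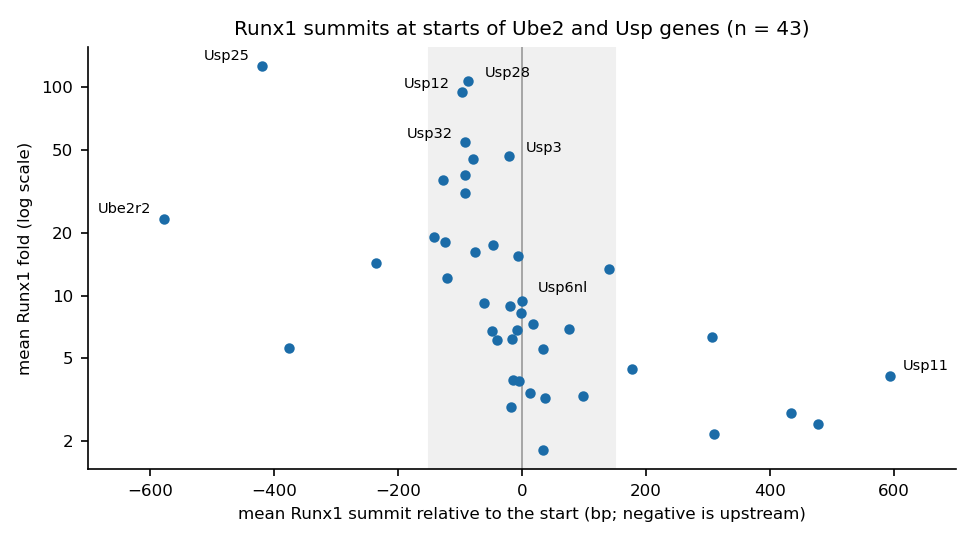
Mean Runx1 fold (log scale) against the mean position of the Runx1 summit relative to the RefSeq start nearest the summit, in bp, for the 43 genes with strand and a summit within 1000 bp. Each point is a gene, and the grey band marks 150 bp either side of the start; the points of highest fold form a column just upstream of the start, with Usp25 and Ube2r2 further out.

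With both spellings pooled, the RUNX core was not more frequent at these promoters than in the whole table. It was in 8 of the 47 promoters with Runx1 at the start side (17.0%) and in 6 of 26 without Runx1 at a gene end (23.1%). Of all 17492 promoters 21.6% held it. Without Runx1 means here, and in the shares that follow, no call at a gene end. It does not mean a promoter free of Runx1: 5 of those genes, Usp34, Usp37, Usp4, Usp54 and Usp7, had Runx1 at the RefSeq start itself. The spellings ran in opposite directions: TGCGGT was in 10.6% of promoters with Runx1, in none of those without and in 7.38% of all, and TGTGGT was in 6.38%, 23.1% and 15.1% of them. These shares rest on 5 and 0 promoters for TGCGGT, and on 3 and 6 for TGTGGT. Over all genes the directions were the same. There TGCGGT was in 10.6% of promoters with Runx1 at the start and in 4.89% of those without, and TGTGGT in 12.9% and 17.1%. TGCGGT contains a CpG and TGTGGT does not. Of the 47 promoters with Runx1, 95.7% held 10 or more CpG, against 57.2% of all promoters. Whether base composition bears on the spellings was not tested. Of 32 genes whose summit fell inside the promoter sequence, 3 had a core within 50 bp of it. CCGGAA, the core of the ETS family of factors, searched on both strands after the data were examined, was in 16 of the 47 promoters with Runx1 (34.0%), in 11.5% of those without and in 19.1% of all promoters. Over all genes it was in 32.3% of promoters with Runx1 at the start and in 8.96% of those without, a contrast like that of the ubiquitin enzyme genes. Among all promoters with 10 or more CpG it was in 29.2%. A match of letters does not show binding, and these windows hold only 300 bases.

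The 10 genes with Polycomb had Runx1 less often, and at lower folds, at their gene ends than the other ubiquitin enzyme genes, a description of small numbers with no test. Runx1 was called at 5 of the 10 genes with Polycomb (50.0%) and at 58 of the 83 with neither signal (69.9%), a difference of −19.9 percentage points. The same difference among all other protein-coding genes was −36.9 points, with 20.4% of genes with Polycomb and 57.3% of those without. The median Runx1 fold was 4.99 at the 5 genes with Polycomb and 9.40 at the 58 without. All 28 folds of 10 or more at a gene end were among those 58, which are most of the 63 genes with Runx1. With only 5 genes on the other side this says little, and the same split was not counted over all genes. At RefSeq starts inside the gene high folds did occur at genes with Polycomb: Usp37 and Usp2 had Runx1 at 42.1 ± 2.89 and 50.9 ± 2.52 there. Genes with Runx1 and Polycomb together made up 5 of the 93, where the background was 6.68% of all genes. The difference turned to 9.83 points at q 0.01, where it rests on 4 genes with Polycomb, 3 of them with Runx1, and to 35.9 points at q 1e-05, where Usp6nl alone has Polycomb. It was −42.4 points with the lists of replicate 1 alone and −8.01 points at gene starts alone, over the 73 genes of known strand.

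Usp6nl (chr2:6322757-6448296) had the clearest Polycomb signal and is not a deubiquitinating enzyme: it encodes a GTPase-activating protein of Rab proteins and is named for its likeness to the amino-terminal part of human USP6. Its Ezh2 fold was 6.15 and 4.18 (5.16 ± 1.39), the one Ezh2 call kept at q 1e-05. H3K27me3 had 2.66 and 2.10 there, and Runx1 had 9.01 and 9.91 (9.46 ± 0.636). All 3 were at the start, with Runx1 summits at −5 and 4 bp and Ezh2 summits at 144 and 121 bp from it. The only other gene called for all 3 antibodies was Usp2.

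Usp27x, which belongs to the Usp22 family of H2B proteases, had Ezh2 at 3.79 and 2.76 (3.27 ± 0.723) and Runx1 at 9.77 and 8.78 (9.27 ± 0.697), and no H3K27me3 call. Ube2j1, an E2 anchored in the endoplasmic reticulum, had Ezh2 at 4.09 and 2.18 (3.13 ± 1.35) beside Runx1 at 2.83 and 3.66. Its Ezh2 summits were at −220 and −214 bp from the start and its Runx1 summits at 61 and 12 bp. Usp24 had H3K27me3 at its far end, with 1.76 and 1.77, and Runx1 at its start, with 2.38 and 2.47, so its signals do not share a window. The H3K27me3 peaks of Usp24 did not touch between replicates.

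The genes with Polycomb and no Runx1 at an end were Ube2l6, Usp43, Usp37, Ube2e2 and Ube2ql1. Ube2l6 (chr2:84798828-84810003) had Ezh2 at 3.42 and 3.32 (3.37 ± 0.0776) and H3K27me3 at 2.30 and 2.87 (2.58 ± 0.408). Both antibodies were called at its start, and Runx1 was nearest 1956 bp from an end. Usp43 had Ezh2 at 2.33 and 2.58 and H3K27me3 at 2.98 and 2.30 (2.64 ± 0.476), the highest mean H3K27me3 of the 93 genes. Ube2ql1 had H3K27me3 alone, with 2.00 and 2.06. Ube2e2, an E2 of the chain-starting group, had H3K27me3 only at its far end, with 3.12 and 2.02. The H3K27me3 folds come from broad peaks over another input and cannot be set against those of Ezh2.

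**Figure D4:**
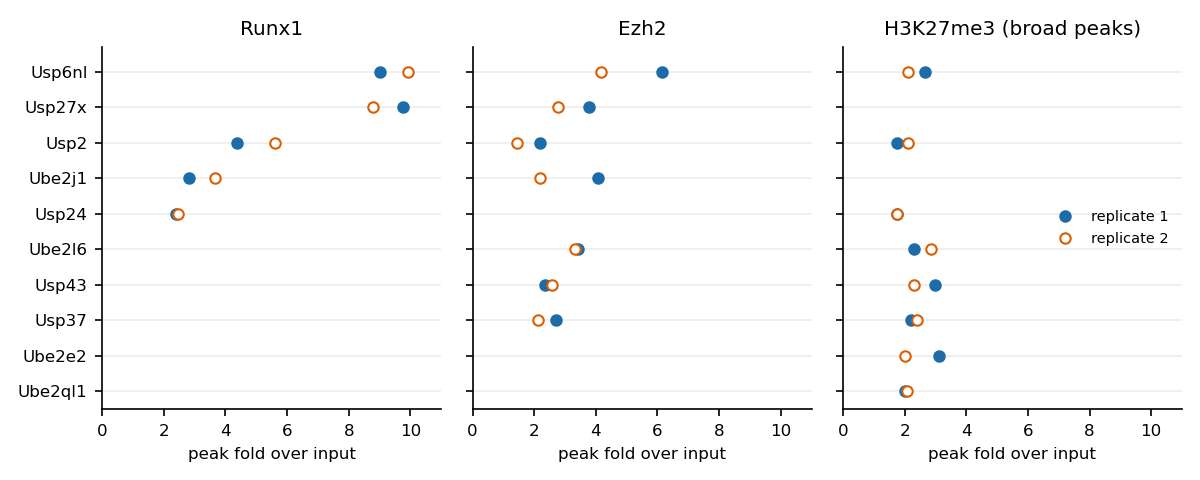
Peak fold over input of Runx1, Ezh2 and H3K27me3 at the 10 genes called for Ezh2 or H3K27me3, with replicate 1 as filled and replicate 2 as open points; a row without points was not called. Runx1 is called in the upper 5 genes, Ezh2 reaches 6.15 at Usp6nl, and H3K27me3 lies between 1.75 and 3.12 in all its genes.

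At 9 genes the RefSeq start lay more than 1 kb inside the annotated gene end, and there the window of the gene end misses it. These starts were examined after the data had been seen. Usp45 (chr4:21767161-21837872), which acts on the DNA repair nuclease Ercc1, had Runx1 at 84.4 and 74.1 (79.2 ± 7.34) at a start 9109 bp inside the gene. At its gene end it had 3.40 and 4.32, in a window shared with another gene. Usp2 (chr9:44067021-44095627), a circadian protease of cyclin D1 and Mdm2, had 52.7 and 49.1 (50.9 ± 2.52) at a start 17899 bp inside, against 4.38 and 5.61 at the gene end. The inner value was 20.5 times the outer one at Usp45 and 10.2 times at Usp2. At Ube2b the inner start had 6.60 and 11.1, against 2.91 and 3.63 at the gene end.

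Another 5 genes had Runx1 at the inner start and at neither gene end. Usp37 (chr1:74435510-74544286), a cell cycle protease, had 44.1 and 40.0 at a start 38465 bp inside the gene. Usp34, a protease of Axin in the Wnt pathway, had 37.2 and 35.4, and Usp7, the protease of p53 and Mdm2, had 22.2 and 24.2. Usp54 and Usp4 were lower, with 2.64 and 5.18, and 2.40 and 2.97. With these, Runx1 was present at a gene end or a RefSeq start in 68 of the 93 genes (73.1%), against 47.9% of all genes under the same rule. At Usp37 Ezh2 (2.72 and 2.12) and H3K27me3 (2.22 and 2.40) were called at the annotated gene end, and neither was called at the inner start with Runx1. Both calls were weak and were lost at q 0.01, and that of Ezh2 also with windows of 500 bp. At Usp2 the outer end held Ezh2 at 2.19 and 1.43 and H3K27me3 at 1.75 and 2.10, both lost at q 0.01. Its inner start held Ezh2 at 1.70 and 2.19 and no H3K27me3 call. Usp13 was the one gene of the 9 without Runx1 at the inner start, where it had H3K27me3 at 1.92 and 1.80.

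**Figure D5:**
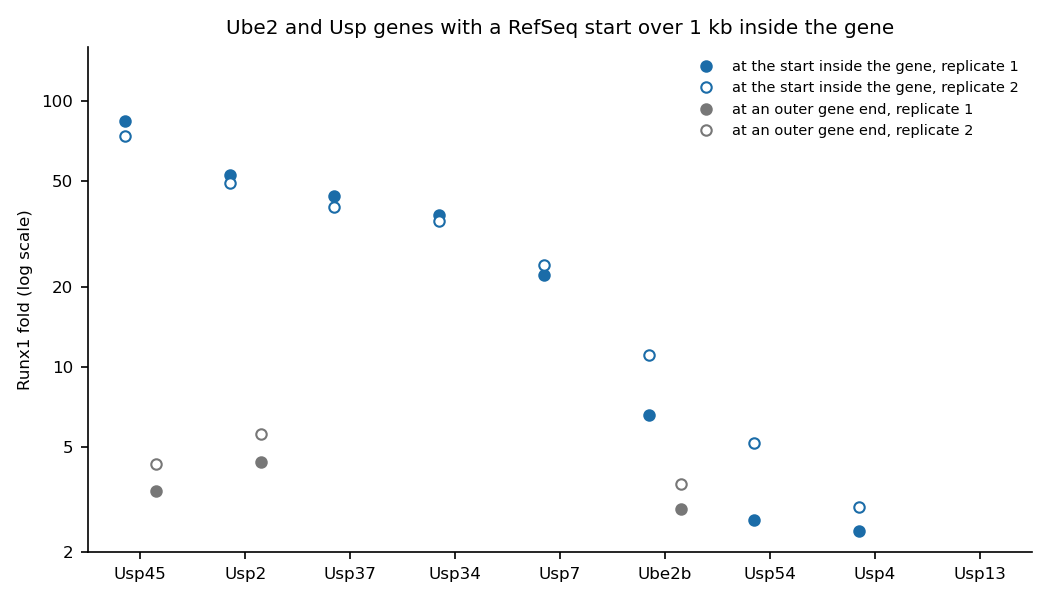
Runx1 fold (log scale) at the 9 genes whose RefSeq start lies over 1 kb inside the gene, with the inner start in blue, left of the outer gene end in grey, and replicates 1 and 2 as filled and open points. A missing point means no peak of both replicates; the inner start is higher at Usp45, Usp2 and Ube2b, and it alone has points at Usp37, Usp34, Usp7, Usp54 and Usp4.

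Runx1 was called at no end of 30 genes. They included Ube2cbp, Ube2d1, Ube2d2b, Ube2dnl1, Ube2dnl2, Ube2e2, Ube2l3, Ube2l6, Ube2ql1, Ube2u, Usp4, Usp7, Usp9y, Usp13, Usp26, Usp29, Usp34, Usp37, Usp40, Usp42, Usp43, Usp50, Usp51, Usp54 and the 5 Usp17l genes (Usp17la to Usp17le). A Runx1 region of both replicates lay inside 13 of them, and 17 had none. The 17 include Usp26, Usp29 and all 5 Usp17l genes, a family that holds enzymes known to be induced by cytokines in blood cells. The Usp17l genes, and the Ube2dnl genes likewise, are near-identical copies whose reads cannot be placed with certainty, so the lack of a call is uncertain there. A peak in a single replicate was seen at an end of Usp34 (2.69 in replicate 1), Usp4 (2.40 in replicate 1), Ube2l3 (1.96 in replicate 2), Usp17ld (1.75 in replicate 2) and Ube2cbp (2.00 in replicate 2), besides Ube2l6. Usp7 had single peaks of 1.77 and 3.09 in different windows. These were all weak beside the median fold of 8.94.

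Other steps of the ubiquitin pathway were listed too. Of 65 genes listed for other steps, 55 held Runx1 (84.6%) and 8 held Polycomb (12.3%), against the background of 45.3% and 32.7% given above. All 9 E1 genes were called, highest at Uba3, the catalytic E1 subunit for Nedd8, with 208 and 161 (185 ± 32.9). All 4 genes that encode ubiquitin were called as well. Deubiquitinating enzymes of other families held Runx1 at 26 of 32 genes and Polycomb at 7, and HECT ligases held Runx1 at 14 of 16 and Polycomb at 1. That gene, Smurf1, a ligase of the TGF-beta pathway, combined Runx1 at 108 and 92.0 (99.9 ± 11.1) with Ezh2 at 5.74 and 5.89. E2 genes under other names held Runx1 at 2 of 4, with no call at Tsg101 and Aktip. Cdc34, an E2 of K48-linked chains, had Runx1 at 49.8 and 42.4, above every Ube2 gene.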

How the data were processed

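Runx1, Ezh2 and H3K27me3 were each mapped in 2 replicates of EML_C1, with 2 input libraries that were not analysed here. The submitters' processing notes list MACS2 2.0.10, SAMtools, Picard, Bowtie2 2.2.1 and mm10, without roles or settings. The authors deposited 1 peak list per library, narrow for Runx1 and Ezh2 and broad for H3K27me3. Each deposited peak has a fold enrichment, a linear ratio over input, and a p-value and a q-value on the −log10 scale, as the authors' caller wrote them. Depth is unknown, since the sources used here give no read totals.

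Gene spans, promoters and starts came from RefSeq tables on GRCm38.p6. A gene was called when the same window, 1 kb either side of a gene end, held a peak of both replicates by at least 1 bp. This misses starts inside a gene, and a peak between neighbours can call both. A value is the highest fold in that window per replicate, and ± is the SD over 2 replicates. No p-value was computed, as no comparison has replicated groups. The genes, role groups and pathway lists were chosen with earlier results of these data known. Named with values were all genes called for Polycomb, the 12 with the highest Runx1 fold, the highest of each role group, those beside the median and those with a peak in 1 replicate. Further genes of a role group were named to show its range, chosen after their values were seen. The window code was tested on simulated intervals. Scripts ran under Python 3.11.15 with pandas 2.3.3.

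Alternatives were the strongest 10000 peaks, q at most 0.01 or 1e-05, windows of 500 bp or 2 kb, 200 bp covered, replicate peaks that touch, the start alone, the whole gene, windows without another gene's end, and 1 replicate alone. The RefSeq starts, the CpG classes, the CCGGAA search and the split of summits by strength were added after seeing the data. Some genes are counted and not reported here by name.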

Additional observations from a re-analysis of the deposited data

How the results depend on the processing

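The Runx1 count of 63 stayed within 1.5 times under every setting except the 10000 strongest peaks of each list (36, or 38.7%, against 22.4% of all genes). Over the 2 settings that rest on 1 replicate, the count of Ezh2 genes ranged from 8 to 13, of H3K27me3 genes from 10 to 20, of either from 12 to 25, of Runx1 with Polycomb from 6 to 10, and the difference in Runx1 share from −42.4 to −26.5 points. The high values came without replicate 2, where all 5 Usp17l copies gained H3K27me3. With the 10000 strongest peaks, Ezh2 was called at 4 genes (4.30%, against 5.88% of all genes), H3K27me3 at 1 (Usp43, 1.08% against 5.61%), either at 5, and Runx1 with Polycomb at 1. At q 0.01 the counts were 4, 0, 4 and 3, and at q 1e-05 they were 1, 0, 1 and 1. Over the whole gene they were 14 (15.1%, against 31.5% of all genes), 17 (18.3% against 39.2%), 19 and 14. At the gene start alone, only the 73 genes of known strand enter. There H3K27me3 was called at 5 of the 73 (6.85%, against 25.1% of all such genes) and the difference was −8.01 points. With 2 kb either side, Runx1 with Polycomb was called at 8 of the 93 genes. At the RefSeq starts, a setting chosen after seeing the data, H3K27me3 was called at 4 of the same 73 genes (5.48%, against 26.0%). The difference of −19.9 points was reversed at q 0.01 (9.83) and at q 1e-05 (35.9, on 1 gene with Polycomb); fewer genes with Polycomb enter there. No paired analysis was possible because no result comes from a test. Among the genes named with values, a call lost under a setting has no fold there. At q 0.01 the Runx1 calls of Usp18 and Usp47, the Ezh2 calls of Usp2, Usp37 and Usp43 and all H3K27me3 calls were lost. For 20 of the 93 genes the strand is not known here. Unknown depth limits what a missing weak peak shows.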

Other observations

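Polycomb regions also lay inside genes whose ends were not called, a count made after the data were examined. Regions found in both replicates were seen inside 11 of the 93 genes for Ezh2 (11.8%, against 24.6% of all genes), inside 16 for H3K27me3 (17.2% against 36.8%) and inside 76 for Runx1 (81.7% against 56.5%). Usp43 was covered most, with 11 Ezh2 and 11 H3K27me3 regions and 48 kb of its 67.6 kb under H3K27me3. Usp13, a protease of autophagy, held 14 H3K27me3 regions over 24.6 kb and 5 Ezh2 regions, and no Runx1 region. Ube2u held 11 H3K27me3 and 7 Ezh2 regions with 1 Runx1 region. Usp42 held 5 H3K27me3 regions over 16.3 kb, no Ezh2 region and 3 Runx1 regions. Usp48 and Usp6nl held the most Runx1 regions, with 6 each.

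Otud1 and Otud3, deubiquitinating enzymes of another family, carried both Runx1 and Ezh2, as Usp6nl does. Otud1 had Runx1 at 14.9 in each replicate, Ezh2 at 5.31 and 3.26 and H3K27me3 at 3.56 and 2.21. Otud3 had Runx1 at 10.3 and 12, Ezh2 at 3.69 and 2.22 and no H3K27me3 call. Uchl1, known for its abundance in neurons, had Ezh2 at 3.50 and 2.16, H3K27me3 at 2.78 and 2.69 and no Runx1 call.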
